A study of Mus musculus with 12 samples.

Results

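The genes described here are 10 inhibitors of cell death and Bcl-2 relatives, 10 of the 25230 genes measured. They were picked by symbol from the deposited table and are Cflar, Birc2, Birc3, Xiap, Ripk1, Mcl1, Bcl2a1a, Bcl2a1b, Bcl2a1d and Bcl2l11. All 10 passed the filter on low values (at least 1 TPM in at least 3 libraries, where TPM is the authors' transcript level scaled to library and gene length). With Candida albicans, Cflar, Birc3, the Bcl2a1 copies and Mcl1 rose in wild-type macrophages, Cflar to 370% and Birc3 to 350% of the PBS mean. In Piezo1 knockout macrophages the responses of these genes were smaller, and with the fungus Cflar stood at 45.5% of the wild-type mean, Birc3 at 58.2% and the summed Bcl2a1 copies at 65.2%. With PBS the knockout already stood at 65.8% of the wild-type mean for Cflar, at 93.3% for Birc3 and at 117% for the Bcl2a1 sum. Birc2, Ripk1 and Bcl2l11 differed by at most 0.21 in either direction on the log2(TPM + 1) scale between treatments or between genotypes.

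The cells were mouse macrophages grown from bone marrow of each genotype with M-CSF, and their polyadenylated RNA was sequenced. The 4 groups of 3 libraries were wild type with PBS, wild type with C. albicans, Piezo1 knockout with PBS and Piezo1 knockout with C. albicans. The knockout PBS libraries carry DMSO in their titles and PBS in their treatment label, and were taken as PBS, so a difference of vehicle cannot be told apart from genotype in comparisons that use them. The type of knockout allele, the dose and strain of the fungus, the time of exposure and the age of the mice are not stated in the labels. Nothing says whether libraries of a group came from separate mice or cultures, so a p-value here reflects the spread among the libraries as sequenced, which may be technical.

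Piezo1 is a mechanically gated cation channel, and the series compares how wild-type macrophages and those labelled Piezo1 knockout respond to the fungus. When a death receptor such as the TNF receptor is engaged, Ripk1 is recruited and the IAP proteins Birc2 and Birc3 (cIAP1 and cIAP2) attach ubiquitin to it, which favours survival signalling over death. Caspase-8 then meets its decoy relative cFLIP, the product of Cflar, and caspases downstream are blocked by XIAP. At mitochondria the pro-survival proteins Mcl1 and A1, the latter made by the Bcl2a1 copies, hold back BH3-only proteins such as Bim, the product of Bcl2l11. Cflar, Birc3 and the Bcl2a1 genes are textbook targets of NF-kB, the transcription factor that drives much of the inflammatory response of macrophages.

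The libraries held 16400119 to 25741091 reads in genes, and 11283 genes were tested. Piezo1 itself was at 130 to 147 TPM in the wild-type libraries and at 62.4 to 67.5 TPM in the knockout libraries, with no overlap, so the labels of genotype matched the RNA. The knockout mean was 48.6% of wild type with PBS and 47.4% with C. albicans. Whether these reads come from an altered transcript or from intact transcript cannot be told from levels of whole genes. The 7 macrophage markers summed to 6315 to 6688 TPM in every library. Neutrophil markers summed to 2.11 to 2.75 TPM in wild type with PBS, 6.56 to 8.07 TPM in wild type with C. albicans, 4.19 to 5.63 TPM in the knockout with PBS and 3.06 to 5.26 TPM in the knockout with C. albicans. S100a9 and Ly6g, 2 of the 7 neutrophil markers, were listed at 0 in all 12 libraries and S100a8 ranged from 1.01 to 7.73 TPM. Dendritic cell markers, 4 in all, summed to 5.42 to 6.56 TPM in wild type with PBS, against 2.81 to 3.48 TPM in wild type with C. albicans, 2.91 to 3.50 TPM in the knockout with PBS and 2.88 to 3.81 TPM in the knockout with C. albicans. Itgax made up most of these sums, and Flt3 reached at most 0.0563 TPM and Zbtb46 at most 0.223 TPM. The 3 B cell markers summed to 2.04 to 2.55 TPM in wild type with PBS and 0.159 to 0.471 TPM in wild type with C. albicans, and to 0.867 to 1.06 TPM and 0.558 to 1.40 TPM in the knockout. The part of such cells in the results was not tested. One library stood apart: wild type with C. albicans replicate 1 differed from its 2 fellow replicates by a chi-square of 14.5 and 15.3 per degree of freedom, against 1.49 to 4.4 for all other pairs of replicates, and calls among the 10 genes that change without it are given both ways. In bulk RNA, fewer cells of a kind and less RNA per cell cannot be told apart.

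Bcl2a1a, Bcl2a1b and Bcl2a1d are near-identical copies, and stretches of their coding sequences are shown because they bear on how far reads can be assigned to one copy. All 3 lie on mouse chromosome 9 (GRCm38, the assembly that mm10 names), Bcl2a1d at 88723288 to 88731850, Bcl2a1a at 88956920 to 88962416 and Bcl2a1b at 89199273 to 89207838. Each has 2 exons and a coding sequence of 519 bases, in transcripts of 819 (Bcl2a1a), 817 (Bcl2a1b) and 863 bases (Bcl2a1d). Only the coding bases were compared, so differences in the untranslated parts are not covered. Bcl2a1a and Bcl2a1b differed at 11 bases (97.9% identity), Bcl2a1a and Bcl2a1d at 7 (98.7%) and Bcl2a1b and Bcl2a1d at 6 (98.8%). Of the 12 coding positions at which any copy differs, 7 fall in bases 1 to 100 and 4 in bases 301 to 420, both in the first coding exon. These stretches, from the GENCODE M21 transcripts, read 5′ to 3′ on the coding strand as follows, with the differing bases in capitals.
Bcl2a1a, bases 1 to 100, chr9:88957051-88957150, plus strand: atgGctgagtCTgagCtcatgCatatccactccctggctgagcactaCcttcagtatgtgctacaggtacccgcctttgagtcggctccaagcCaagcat
Bcl2a1b, bases 1 to 100, chr9:89199360-89199459, plus strand: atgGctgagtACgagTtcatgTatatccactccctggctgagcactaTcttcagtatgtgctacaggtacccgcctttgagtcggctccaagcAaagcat
Bcl2a1d, bases 1 to 100, chr9:88731620-88731719, minus strand: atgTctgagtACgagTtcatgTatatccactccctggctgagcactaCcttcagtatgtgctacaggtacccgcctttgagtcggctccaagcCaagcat
Bcl2a1a, bases 301 to 420, chr9:88957351-88957470, plus strand: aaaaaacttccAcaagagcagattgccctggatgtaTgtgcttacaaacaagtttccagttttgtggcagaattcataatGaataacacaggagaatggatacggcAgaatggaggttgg
Bcl2a1b, bases 301 to 420, chr9:89199660-89199779, plus strand: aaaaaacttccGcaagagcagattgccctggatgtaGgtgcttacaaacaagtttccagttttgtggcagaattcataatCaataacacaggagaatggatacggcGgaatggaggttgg
Bcl2a1d, bases 301 to 420, chr9:88731300-88731419, minus strand: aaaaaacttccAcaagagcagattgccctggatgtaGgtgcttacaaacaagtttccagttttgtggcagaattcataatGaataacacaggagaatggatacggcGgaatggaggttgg
Between these stretches, coding bases 95 to 311 hold a run of 217 bases without any difference. A read from within that run fits all 3 copies, and how the authors' counting treated such reads is not stated in the labels or the file. The split between copies is therefore uncertain, and the sum of their TPM is given beside each copy. Bcl2a1c, the remaining copy in the table, had 1 read in 1 of 12 libraries.

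Cflar encodes cFLIP, the decoy that competes with caspase-8 at death receptors, and lies at chr1:58711311-58758884. It was at 38.3, 38.7 and 36.3 TPM in wild type with PBS and at 150, 134 and 134 TPM with C. albicans. Knockout libraries held 25.4, 24.8 and 24.4 TPM with PBS and 63.4, 63.2 and 64.1 TPM with C. albicans. None of the 4 groups overlapped, and their order from low to high was knockout PBS, wild-type PBS, knockout C. albicans and wild-type C. albicans. On the log2(TPM + 1) scale, Cflar rose with the fungus by 1.86 ± 0.048 (SE) in wild type (limma, adjusted p = 1.39e-11) and by 1.32 ± 0.048 in the knockout (adjusted p = 1.38e-09). The response in the knockout was smaller by 0.54, as the interaction of -0.54 shows (95% interval -0.68 to -0.39, adjusted p = 0.000272). Cflar was also lower in the knockout without the fungus, by a log2 difference of -0.59 ± 0.048 (adjusted p = 4.39e-06), and the gap with C. albicans was -1.12 ± 0.048 (adjusted p = 2.40e-08). Cflar is longer than 96.8% of tested genes as the authors' TPM measures length, and with the trend of log2 level on gene length removed from each library the gaps were -0.30 (adjusted p = 0.000211) and -0.82 (adjusted p = 4.75e-08).

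**Figure D1:**
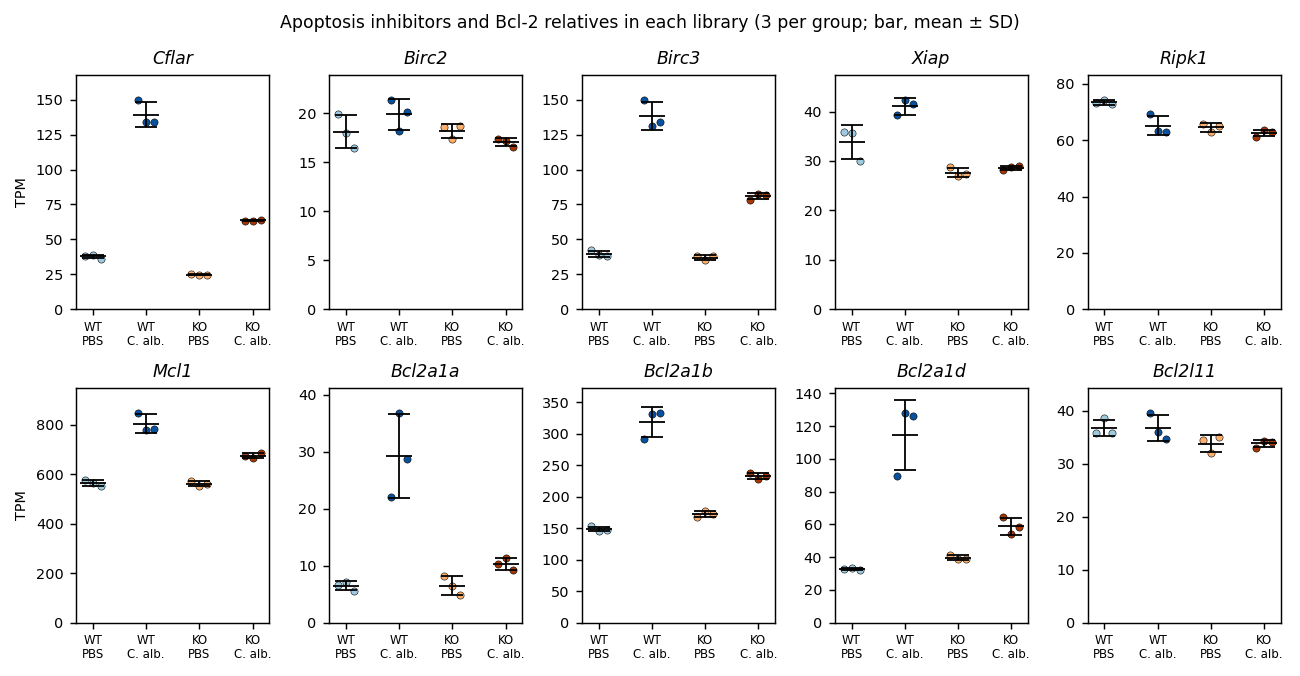
Level of each of the 10 genes in TPM (linear axis from 0, its own scale for each gene) in the 12 libraries, where points are libraries and bars are the mean ± SD of 3. Cflar at 134 to 150 TPM and Birc3 at 131 to 150 TPM in wild type with C. albicans lie above every other library, while the wild-type PBS and C. albicans libraries of Birc2 and of Bcl2l11 overlap.

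Birc3 encodes cIAP2, a ubiquitin ligase that acts on Ripk1, and lies at chr9:7847468-7873205. Its levels were 42.1, 38.5 and 38.3 TPM in wild type with PBS and 150, 131 and 134 TPM with C. albicans. They were 38.2, 34.9 and 37.8 TPM in the knockout with PBS and 78.3, 82.2 and 81.7 TPM with C. albicans. With PBS the lowest wild-type library and the highest knockout library were almost level, whereas with the fungus every wild-type library was above every knockout library. Birc3 rose by 1.78 ± 0.058 (log2, SE, limma) in wild type (adjusted p = 1.12e-10) and by 1.11 ± 0.058 in the knockout (adjusted p = 4.94e-08), a difference of responses of -0.67 (95% interval -0.85 to -0.50, adjusted p = 0.000218). The knockout was lower than wild type with C. albicans by a log2 difference of -0.77 ± 0.058 (adjusted p = 9.27e-07). With PBS the difference of -0.10 did not pass (95% interval -0.22 to 0.03, adjusted p = 0.228). Birc3 is of middling length, with 46.0% of tested genes at most as long.

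Birc2 encodes cIAP1, the closest relative of cIAP2, and is the neighbouring gene at chr9:7818226-7837131. Its levels were 19.9, 18 and 16.5 TPM in wild type with PBS, 21.4, 18.2 and 20.1 TPM in wild type with C. albicans, 18.6, 17.4 and 18.7 TPM in the knockout with PBS and 17.4, 17.2 and 16.6 TPM in the knockout with C. albicans. The wild-type groups overlapped each other and the knockout PBS group, and with C. albicans the 3 knockout libraries lay below the 3 wild-type ones. Neither response passed, with log2 differences of 0.13 in wild type (95% interval -0.03 to 0.28, adjusted p = 0.160) and -0.09 in the knockout (interval -0.25 to 0.06, adjusted p = 0.472). The wild-type response of Birc2 passed in 4 of 23 alternatives: with median-ratio factors, 1 per library and set so that the middle gene does not move (0.21, adjusted p = 0.0251), with the length trend removed (0.22, adjusted p = 0.0157), with limma voom on recovered reads (0.21, adjusted p = 0.0246) and without wild type with PBS replicate 1 (0.19, adjusted p = 0.0485). With C. albicans, Birc2 was lower in the knockout by a log2 difference of -0.21 ± 0.071 (adjusted p = 0.0323). That call was lost in 10 of 23 alternatives, among them leaving out wild type with C. albicans replicate 1 (-0.16, adjusted p = 0.102). The others include median-ratio factors (-0.15, adjusted p = 0.0845), upper-quartile factors (-0.13, adjusted p = 0.133), the length trend removed (-0.16, adjusted p = 0.0822) and voom (-0.15, adjusted p = 0.0799). In the authors' deposited table, whose comparison matched C. albicans over PBS in wild type, the log2 fold change of Birc2 was 0.21 with an adjusted p of 0.0404.

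Xiap, a direct inhibitor of caspases, lies at chrX:42059613-42109664. It stood at 35.9, 35.6 and 29.9 TPM in wild type with PBS and at 39.2, 42.4 and 41.6 TPM with C. albicans. Knockout libraries held 28.7, 26.9 and 27.3 TPM with PBS and 28.1, 28.7 and 28.9 TPM with C. albicans. All 6 knockout libraries were below all 6 wild-type libraries, and the 2 knockout groups overlapped. Xiap rose by 0.28 ± 0.064 (log2, SE, limma) in wild type (adjusted p = 0.00378), and the difference of 0.05 in the knockout did not pass (95% interval -0.09 to 0.19, adjusted p = 0.707). The difference of these responses was -0.23 and did not pass (interval -0.43 to -0.03, adjusted p = 0.114). It passed in 1 of 22 alternatives, limma voom on recovered reads (-0.28, adjusted p = 0.0215). The knockout was lower, with log2 differences of -0.28 ± 0.064 with PBS (adjusted p = 0.00574) and -0.51 ± 0.064 with C. albicans (adjusted p = 5.60e-05). Xiap is longer than most tested genes (92.0% are at most as long), and with the length trend removed the PBS gap was -0.04 and no longer passed (adjusted p = 0.722), while the gap with C. albicans was -0.27 (adjusted p = 0.00489).

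Ripk1, the kinase that the cIAPs modify and that can signal either survival or death, lies at chr13:34002225-34035170. It was at 73.3, 74.4 and 72.8 TPM in wild type with PBS and at 69.3, 63.3 and 63.1 TPM with C. albicans. The knockout levels were 65.8, 62.9 and 65.2 TPM with PBS and 61.3, 63.5 and 63.1 TPM with C. albicans. The 3 wild-type PBS libraries were above the other 9, which overlapped one another. Ripk1 fell by 0.17 on the log2 scale with the fungus in wild type (SE 0.042, limma adjusted p = 0.00546) and was lower in the knockout with PBS by a log2 difference of -0.18 (SE 0.042, adjusted p = 0.00522). Neither call held when the TPM were rescaled by median-ratio factors (-0.09 with adjusted p = 0.0547, and -0.09 with adjusted p = 0.0903). With the length trend removed the PBS gap was -0.02 (adjusted p = 0.669). The authors' deposited table gave a log2 fold change of -0.09 for Ripk1 with an adjusted p of 0.0846. Neither the response in the knockout (-0.04, 95% interval -0.14 to 0.05) nor the gap with C. albicans (-0.06, interval -0.15 to 0.03) passed.

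Mcl1, a short-lived pro-survival protein of mitochondria, had the highest level of the 10 genes, above 97.9% of tested genes in wild type with PBS, and lies at chr3:95656944-95663179. Its levels were 578, 565 and 554 TPM in wild type with PBS and 848, 781 and 783 TPM with C. albicans. The knockout stood at 572, 554 and 559 TPM with PBS and at 673, 667 and 687 TPM with C. albicans. The PBS groups overlapped, and with the fungus both genotypes were above their PBS libraries, wild type further than the knockout. Mcl1 rose by 0.51 ± 0.033 (log2, SE, limma) in wild type (adjusted p = 1.29e-07) and by 0.27 ± 0.033 in the knockout (adjusted p = 0.000224), a difference of responses of -0.24 (95% interval -0.34 to -0.14, adjusted p = 0.00519). It was lower in the knockout with C. albicans, with a log2 difference of -0.25 ± 0.033 (adjusted p = 7.98e-05). With PBS the difference of -0.01 did not pass (interval -0.08 to 0.06), and it turned to 0.09 and passed with the median-ratio factors (adjusted p = 0.0295). It was also at 0.09 and passed with the length trend removed (adjusted p = 0.0399) and with limma voom on recovered reads (adjusted p = 0.0262).

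The Bcl2a1 copies together, which make the pro-survival protein A1, summed to 192, 187 and 184 TPM in wild type with PBS and to 404, 497 and 488 TPM with C. albicans. The knockout sums were 217, 224 and 216 TPM with PBS and 311, 294 and 301 TPM with C. albicans. No group overlapped another: with PBS the knockout was the higher genotype, and with the fungus it was the lower one. The sum rose by 1.29 ± 0.062 (log2, SE, limma) in wild type (adjusted p = 4.90e-09) and by 0.46 ± 0.062 in the knockout (adjusted p = 0.000379). The response in the knockout differed by -0.83 (95% interval -1.02 to -0.64, adjusted p = 7.14e-05). With C. albicans the knockout sum was lower, with a log2 difference of -0.61 ± 0.062 (adjusted p = 9.48e-06). With PBS it was higher by 0.22 ± 0.062 (adjusted p = 0.0159), and this gap was 0.13 and did not pass with the length trend removed (adjusted p = 0.168), the copies being shorter than most tested genes (6.04% to 6.51% are at most as long). Nor did the gap pass without knockout with PBS replicate 2 (0.20, adjusted p = 0.0576).

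Bcl2a1b, the most abundant copy, was at 153, 146 and 147 TPM in wild type with PBS and at 292, 332 and 333 TPM with C. albicans. It was at 168, 178 and 172 TPM in the knockout with PBS and at 237, 228 and 233 TPM with C. albicans. Bcl2a1b showed the same order of groups as the sum. It rose by 1.10 ± 0.047 (limma, adjusted p = 1.90e-09) in wild type and by 0.43 ± 0.047 (adjusted p = 7.02e-05) in the knockout on the log2 scale. The knockout was higher with PBS by 0.22 ± 0.047 (adjusted p = 0.00411), a call lost with the length trend removed (0.12, adjusted p = 0.0868), and lower with C. albicans, with a log2 difference of -0.45 ± 0.047 (adjusted p = 1.33e-05). The difference of responses was -0.67 (95% interval -0.81 to -0.52, adjusted p = 4.84e-05).

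Bcl2a1d held 32.5, 33.6 and 31.9 TPM in wild type with PBS and 89.8, 128 and 126 TPM with C. albicans. Its knockout levels were 41.3, 38.9 and 38.8 TPM with PBS and 64.4, 53.9 and 58.3 TPM with C. albicans. Wild type with C. albicans was again the highest group, with replicate 1 the lowest of its 3 libraries. Bcl2a1d rose by 1.76 ± 0.11 (log2, SE, limma) in wild type (adjusted p = 6.27e-08) and by 0.55 ± 0.11 in the knockout (adjusted p = 0.00756), a difference of responses of -1.21 (95% interval -1.54 to -0.88, adjusted p = 0.000284). With C. albicans it was lower in the knockout, with a log2 difference of -0.93 ± 0.11 (adjusted p = 2.78e-05). The difference of 0.27 with PBS did not pass (adjusted p = 0.0726), and it passed without wild type with C. albicans replicate 1 (adjusted p = 0.00223), since the spread of that group enters the common estimate of error.

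Bcl2a1a, the least abundant copy, rested on 29 to 290 reads per library. Its levels were 6.63, 7.17 and 5.57 TPM in wild type with PBS and 22.1, 36.8 and 28.8 TPM with C. albicans, against 8.19, 6.33 and 4.9 TPM and 10.3, 11.3 and 9.25 TPM in the knockout. The PBS groups overlapped, and wild type with C. albicans was above every other library. Bcl2a1a rose by 2.0 ± 0.18 (log2, SE, limma) in wild type (adjusted p = 2.18e-06). The difference of 0.62 ± 0.18 in the knockout did not pass (adjusted p = 0.0541), although it passed in 8 of 23 alternatives, among them without wild type with C. albicans replicate 1 (adjusted p = 0.0175) and with a replicate block (adjusted p = 0.0446). The difference of responses was -1.38 (95% interval -1.92 to -0.84, adjusted p = 0.00320), and the knockout was lower with C. albicans, with a log2 difference of -1.39 ± 0.18 (adjusted p = 5.67e-05).

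**Figure D2:**
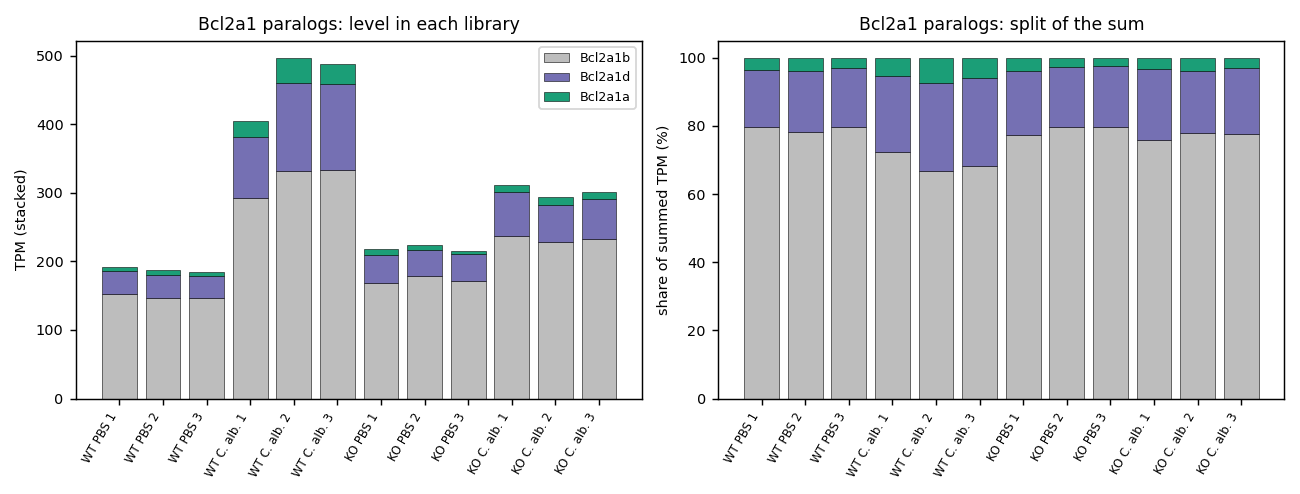
Stacked TPM of the 3 Bcl2a1 copies in each of the 12 libraries (left, axis from 0) and the share of each copy in that sum in percent (right). Bcl2a1b held 66.9% to 72.3% of the sum in wild type with C. albicans and 76.0% to 79.8% in the other libraries.

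As deposited, the copies did not rise in proportion. Bcl2a1b made up 79.2% ± 0.825 (SD, n = 3) of the sum in wild type with PBS and 69.2% ± 2.80 with C. albicans, against 78.9% ± 1.44 and 77.1% ± 0.970 in the knockout. Bcl2a1d went the other way in wild type, from 17.4% ± 0.525 to 24.6% ± 2.03, and Bcl2a1a from 3.44% ± 0.403 to 6.26% ± 1.02. In the knockout Bcl2a1d was at 18.1% ± 0.800 and 19.5% ± 1.17 and Bcl2a1a at 2.96% ± 0.756 and 3.42% ± 0.404. The shares in wild type with C. albicans overlapped no other group, with no test made, and they rest on how reads common to the copies were counted.

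Bcl2l11 encodes Bim, the killer among these genes, which Mcl1 and A1 bind, and lies at chr2:128126038-128162547. It was at 35.8, 38.6 and 35.9 TPM in wild type with PBS and at 39.6, 36 and 34.7 TPM with C. albicans. The knockout libraries held 34.4, 32 and 35 TPM with PBS and 33, 34.3 and 34.2 TPM with C. albicans. With each treatment the 3 knockout libraries lay just below the 3 wild-type ones, and PBS and C. albicans libraries overlapped within each genotype. The responses of Bcl2l11 to the fungus did not pass, with log2 differences of 0.00 in wild type (95% interval -0.12 to 0.12, adjusted p = 0.965) and 0.00 in the knockout (interval -0.12 to 0.12, adjusted p = 0.984). Nor did the knockout differences of -0.12 with PBS (interval -0.24 to 0.00, adjusted p = 0.124) and -0.11 with C. albicans (interval -0.23 to 0.01, adjusted p = 0.128). Bcl2l11 is among the longer genes (92.4% are at most as long), and with the length trend removed the knockout difference with C. albicans turned to 0.12 and passed (adjusted p = 0.0453).

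**Figure D3:**
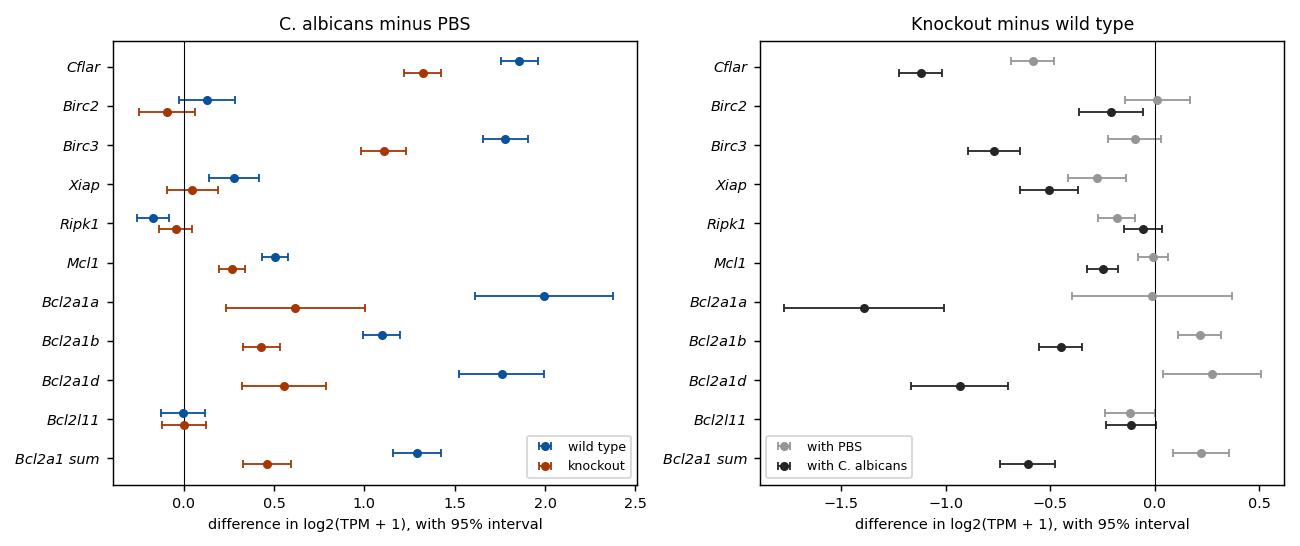
Differences in log2(TPM + 1) with 95% intervals for the 10 genes and the Bcl2a1 sum, C. albicans minus PBS in each genotype (left) and knockout minus wild type with each treatment (right). Cflar, Birc3, Mcl1 and the Bcl2a1 copies lie to the right in wild type, from 0.51 to 2.0, and nearer to 0 in the knockout.

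Over all 10 genes, 7 rose and 1 fell with C. albicans in wild type, where 44.4% of tested genes passed (limma, adjusted p under 0.05), 16.1% rising and 28.3% falling. The 7 were Cflar, Birc3, Xiap, Mcl1 and the 3 Bcl2a1 copies, and the 1 was Ripk1. The split of reads between the 3 copies is uncertain, so they are not separate observations in this count and median or in those that follow. The median log2 difference of the 10 was 0.80, against -0.07 over all tested genes. Rescaling by median-ratio factors moved the share of rises among all calls from 36.2% to 55.5% and left no member lower, since Ripk1 no longer passed, while Birc2 was added to those that rose.

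In the knockout, 5 of the 10 genes rose with C. albicans and 0 fell, where 7.08% of tested genes passed, 3.94% rising and 3.14% falling (limma, with 0 of the 10 lower also at an unadjusted p under 0.05 and with limma voom on the recovered reads). The 5 were Cflar, Birc3, Mcl1, Bcl2a1b and Bcl2a1d. The median over the 10 was 0.35, against -0.04 over all tested genes. Without wild type with C. albicans replicate 1 the number that rose was 6, Bcl2a1a being added, and the number of all genes that fell went from 354 to 824. Rises made up 55.7% of all calls, and 78.0% with the median-ratio factors.

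Knockout against wild type with PBS gave 1 higher gene, Bcl2a1b, and 3 lower ones, Cflar, Xiap and Ripk1, where 6.14% of tested genes were higher and 26.1% lower. The median difference of the 10 genes was -0.06, against -0.08 over all tested genes, and the total of 4 calls in 10 lay near the background of 32.3%. Scaling mattered most here. The share of higher genes among all calls was 19.0% as deposited and 50.2% with the median-ratio factors, under which Mcl1, Bcl2a1b and Bcl2a1d were higher and only Cflar among the 10 was lower. With the length trend removed, Cflar was again the only one of the 10 that was lower.

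With C. albicans, 8 of the 10 genes were lower in the knockout and 0 higher, where 39.9% of tested genes passed, 27.5% lower and 12.4% higher (limma, with 0 of the 10 higher also at an unadjusted p under 0.05 and with limma voom on the recovered reads). The 2 that did not pass were Ripk1 and Bcl2l11. The median of the 10 was -0.48, against -0.05 over all tested genes. Without wild type with C. albicans replicate 1 the number lower was 7, Birc2 being lost. Birc2 also did not pass with median-ratio factors, upper-quartile factors, the length trend removed or voom. The share of higher genes among all calls was 31.1%, and 46.9% with the median-ratio factors.

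**Figure D4:**
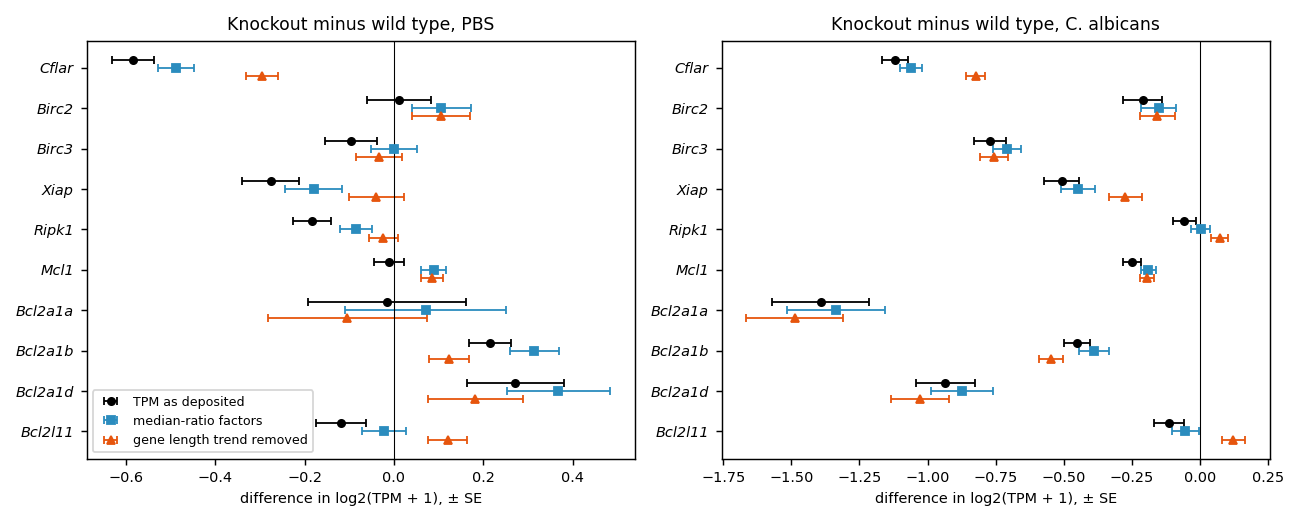
Knockout minus wild type in log2(TPM + 1), ± SE, with PBS (left) and with C. albicans (right), from the deposited TPM, from TPM rescaled by median-ratio factors and with the trend on gene length removed. With PBS the Xiap difference goes from -0.28 to -0.18 and -0.04, and with C. albicans Cflar, Birc3 and the Bcl2a1 copies stay below 0 under all 3.

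The response in the knockout differed from that in wild type for 6 of the 10 genes, all with a smaller rise in the knockout: Cflar, Birc3, Mcl1 and the 3 Bcl2a1 copies. The 3 copies may share reads and are not independent of each other, and as 1 sum they passed at -0.83 (limma, adjusted p = 7.14e-05). Of tested genes 13.9% passed this test, 6.33% with a negative interaction and 7.52% with a positive one. The median interaction was -0.39 over the 10 genes, against 0.02 over all tested genes. Xiap at -0.23, Birc2 at -0.22 (adjusted p = 0.171), Ripk1 at 0.13 (adjusted p = 0.186) and Bcl2l11 at 0.01 (adjusted p = 0.970) did not pass. With limma voom on recovered reads Xiap passed as well (-0.28, adjusted p = 0.0215). Without wild type with C. albicans replicate 1 the 6 calls remained at interactions of -0.20 for Mcl1 to -1.56 for Bcl2a1a, and Ripk1 passed at 0.17 (adjusted p = 0.0220), while positive interactions over all tested genes went from 849 to 1472. The share of positive interactions among all calls was 54.3%, and 41.2% with the median-ratio factors. All these comparisons use the same 12 libraries, the 2 responses and the 2 knockout effects sharing groups with one another and with the interaction, so they are not independent of each other.

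The rest of the pathway was described by 7 lists, with the same fit and no test of a list as a whole. All differences given are in log2(TPM + 1), and each gene said to rise, fall or be lower or higher passed limma's test. Of all tested genes, 16.1% rose and 28.3% fell with C. albicans in wild type, 3.94% and 3.14% did so in the knockout, 6.14% were higher and 26.1% lower in the knockout with PBS, and 12.4% were higher and 27.5% lower with C. albicans, and the counts below are to be read against these shares. Among receptors and proteins of the death receptor complex, 7 of 15 rose and 4 fell with C. albicans in wild type, and 3 rose in the knockout. The 4 of 15 that fell are near the background share of 28.3%. Without wild type with C. albicans replicate 1, 5 rose and 1 fell in the knockout. Tnfaip3, the ubiquitin editor A20, rose by 2.56 in wild type and 1.73 in the knockout on the log2 scale. Traf1, a partner of the cIAPs, rose by 2.40 and 1.03, and its relative Traf3 by 0.89 and 0.43. With the fungus 9 of 15 were lower and 2 higher in the knockout, among them Traf1 at -1.36, Tnfaip3 at -1.03 and Traf3 at -0.79. With PBS 4 were lower, Traf3 at -0.32, Spata2 at -0.27 and Cyld at -0.20 foremost, but with the length trend removed all 4 calls were lost.

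Among the 13 kinases that act on Ripk1 and genes of necroptosis, 5 rose and 3 fell in wild type and 2 rose and 1 fell in the knockout. In wild type the numbers were 8 and 1 with median-ratio factors, with the length trend removed or with limma voom, and 4 and 1 without wild type with C. albicans replicate 1. In the knockout 4 rose with the length trend removed or with voom, and 1 with upper-quartile factors. Ikbke, an IKK-related kinase, rose by 0.69 in wild type and 0.28 in the knockout, and Mapkapk2, the kinase MK2 that phosphorylates Ripk1, by 0.54 and 0.19. The knockout call was lost in 13 of 23 alternatives for Ikbke, among them no filter on low values (adjusted p = 0.0960), and in 5 for Mapkapk2. Tab1, a subunit of the TAK1 complex, fell by 0.49 and by 0.32. In the knockout 11 of 13 were lower and 2 higher with the fungus, among them Ikbke at -0.85, Mapkapk2 at -0.45 and Tab2, another TAK1 subunit, at -0.35. The number lower there was 8 with median-ratio factors, upper-quartile factors or voom, and 10 with the length trend removed. With PBS 8 were lower, including Ikbke at -0.44, Tab2 at -0.36 and Tbk1 at -0.21, but 3 were lower and 1 higher with the median-ratio factors.

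Of the 6 caspases of apoptosis, 5 fell with C. albicans in wild type, where 28.3% of tested genes fell. Casp9, the initiator caspase of the mitochondrial pathway, fell on the log2 scale by 0.43, Casp2 by 0.44 and Casp6 by 0.24. Knockout cells had 2 that fell, Casp9 at -0.25 and Casp2 at -0.27, calls lost in 3 and 4 of 23 alternatives. With the fungus 2 were higher in the knockout, among them Casp6 at 0.29, and the number was 4 with median-ratio or upper-quartile factors, the length trend removed or voom, and 3 without wild type with C. albicans replicate 1. The number that fell in wild type was 3 with the median-ratio factors or with the length trend removed, Casp6 being among those that no longer passed. In the knockout comparison with PBS 0 of 6 passed with limma (1 at an unadjusted p under 0.05 and 0 with limma voom), where the median was -0.10 against -0.08 over all tested genes.

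BH3-only proteins, the killer class to which Bim belongs, had 7 tested members of 9. In wild type 3 rose with C. albicans, Bid at 0.37, Pmaip1 (Noxa) at 0.38 and Bnip3 at 0.30, and 3 fell, Bmf at -0.65, Bbc3 (Puma) at -0.50 and Bnip3l at -0.15. Bnip3l no longer passed with the median-ratio factors or with the length trend removed. The call of Bnip3 was lost in 12 of 23 alternatives, among them leaving out wild type with C. albicans replicate 2 (0.20, adjusted p = 0.176), and that of Pmaip1 in 1. In the knockout 0 of 7 passed with limma, while 1 was higher and 2 lower at an unadjusted p under 0.05 and 1 was higher with limma voom. With the fungus Bid was the 1 gene of the 7 that was lower in the knockout, at -0.46, and 2 were lower without wild type with C. albicans replicate 1. With median-ratio or upper-quartile factors or voom 2 of the 7 were higher there, against 0.

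Of the other pro-survival Bcl-2 relatives, 0 of 3 tested passed in wild type with limma, 0 at an unadjusted p under 0.05 and 1 with limma voom, while Bcl2l1 (Bcl-xL) rose by 0.24 in the knockout. The limma interaction of Bcl2l1 was 0.16 and did not pass (adjusted p = 0.160). With C. albicans Bcl2l2 was lower in the knockout at -0.33 and Bcl2l1 at -0.20, and with PBS they were at -0.27 and -0.35. The call of Bcl2l2 with PBS was lost in 8 of 23 alternatives, every rescaling among them (-0.18 with adjusted p = 0.134 for the median-ratio factors). The Bcl2l1 difference with C. albicans was -0.12 with upper-quartile factors (adjusted p = 0.0535) and -0.10 with the length trend removed (adjusted p = 0.0946), and passed with neither.

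Pore-forming effectors and proteins released from mitochondria had 6 tested members of 7. Of these 1 rose in wild type, Cycs (cytochrome c) at 0.23, and in the knockout Bax rose at 0.16 while Bak1 fell at -0.16. The call of Bax was lost in 9 of 23 alternatives and that of Bak1 in 12, among them median-ratio factors (-0.12, adjusted p = 0.167) for Bak1. The limma interactions of Bax (0.09, adjusted p = 0.381) and Bak1 (-0.10, adjusted p = 0.285) did not pass. The number that rose in wild type was 3 with median-ratio factors or voom and 2 with the length trend removed. Apaf1, which assembles the apoptosome, was lower in the knockout at -0.33 with PBS and -0.38 with C. albicans. With the length trend removed Apaf1 passed in neither (-0.10, adjusted p = 0.401, and -0.16, adjusted p = 0.119), and with PBS it did not pass with median-ratio factors either (-0.23, adjusted p = 0.0513). Of 5 tested genes among the other IAP relatives and their antagonists, 1 rose in wild type, Birc6 at 0.17. Birc6, a giant IAP, was lower in the knockout at -0.60 with PBS and -0.77 with the fungus, and Naip2 at -0.23 and -0.37. With the length trend removed the Birc6 differences were -0.22 and -0.35 and still passed, while Naip2 with PBS was at -0.07 and did not (adjusted p = 0.260).

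**Figure D5:**
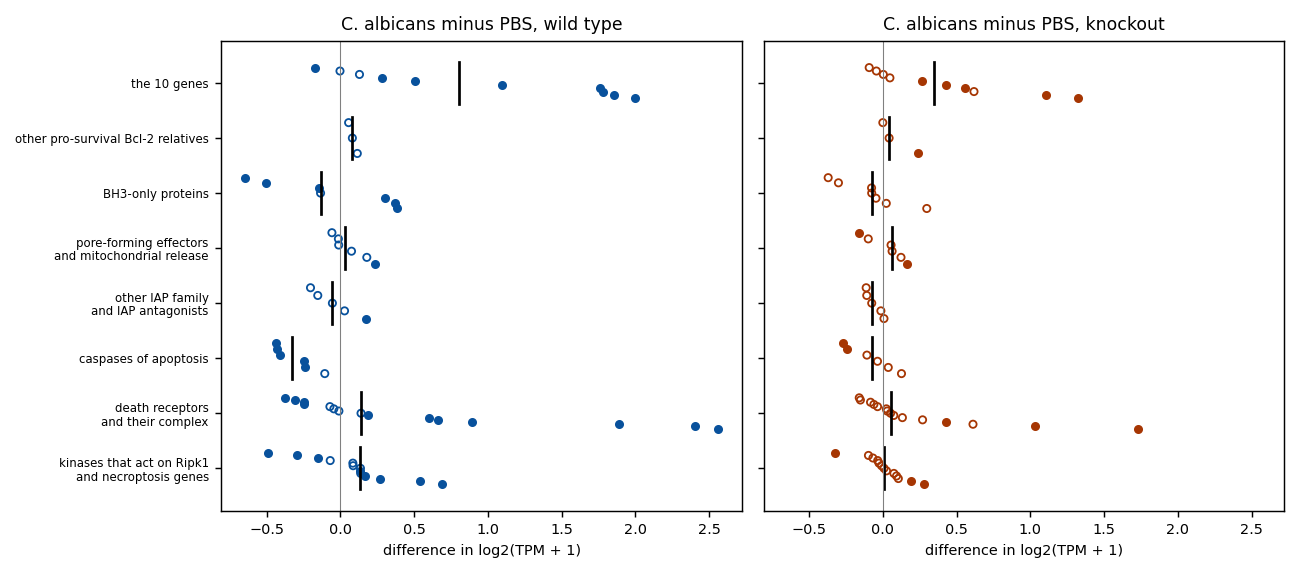
Response to C. albicans in log2(TPM + 1) for the 10 genes and 7 lists of pathway genes, in wild type (left) and the knockout (right), where each circle is a gene, filled circles passed an adjusted p of 0.05 and bars mark the median. The median of the 10 genes was 0.80 in wild type and 0.35 in the knockout, and that of the caspases was -0.33 and -0.07.

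As a description of shape, the tested genes outside the 10 whose log2(TPM + 1) followed each of 3 genes most closely over the 12 libraries were listed by Pearson correlation. For Birc3 they were Tnfaip3 (0.998), Ptger4 (0.996) and Map3k8 (0.995), and for Cflar they were Jag1 (0.997), Rasgef1b (0.995) and Ralgds (0.993). For Bcl2l11, which hardly varied, they were Polr2c (0.962), Trp53bp1 (0.941) and Irgq (0.939). The 12 points of each correlation fall into the 4 groups and share library and scaling. For Birc3 and Cflar, which changed strongly, a value near 1 is therefore reached by any gene with the same 4 group levels. This does not hold for Bcl2l11, whose groups lie close together beside their spread. The genes named are the highest of all tested genes outside the 10, a choice that raises such values.

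The promoter windows of the 10 genes, 250 bases before to 50 after each annotated start in RefSeq, were searched on both strands for the kappa-B consensus, the motif bound by NF-kB. It was in 0 of 15 windows of the 10 genes, against 4.51% of all 32851 windows. A missing match says only that these letters are not in these windows.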

How the data were processed

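TPM for 25230 genes in 12 libraries were deposited by the authors in 1 table, each column summing to 1000000. The submitters' processing notes name mm10 with CASAVA 1.8 and cutadapt 2.6 for the reads, STAR 2.7.5a and DESeq2 1.34.0. Read counter, strand setting and annotation are not stated in the labels or the file. Per the file headers, the table also has DESeq2 columns by the authors: a log2 fold change, its standard error, the mean normalised signal, a Wald score and a p-value, raw and adjusted. No header says which groups they compare. They matched C. albicans over PBS in wild-type cells, with a median gap of 0.000946 to log2 ratios of TPM divided by median-ratio factors. This used 9298 genes with a mean normalised signal over 100.

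The deposited TPM together with the mean signal gave back whole reads: 100% of 124665 values under 1000 reads lay within 0.01 of a whole number. No read was found for 8075 genes, and the 28 lacking a symbol took 0.00132% of reads. Genes reaching 1 TPM in 3 or more libraries were tested by limma 3.58.1 (R 4.3.3) on log2(TPM + 1), a scale that understates changes of low genes. The fit had 1 mean per group, a variance trend and 8 residual degrees of freedom. P-values are two-sided and adjusted by the Benjamini-Hochberg method over all 11283 tested genes within a comparison, and 0.05 was the threshold. An interaction is the knockout response minus the wild-type response. The Bcl2a1 sum replaced its 3 copies in another table fitted the same way. The length trend was taken out by a lowess curve on lengths recovered from TPM and reads. The scripts were tested on simulated data.

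Alternatives were other pseudocounts, filters and scalings, no variance trend, only the libraries compared, a replicate block, the length trend removed and each library left out. Limma voom on the recovered reads was added after seeing the data, and called 4730 genes for the wild-type response, 1016 for the knockout response, 3269 for the knockout with PBS, 4827 for the knockout with C. albicans and 1917 for the interaction. The 10 genes, the pathway lists and the marker lists were chosen with earlier results of these data known. Named genes are the 10, Piezo1 and up to 3 genes of each list with the smallest p in a comparison. For the wild-type response Pmaip1, Bnip3, Bnip3l and Casp6, and for the interaction Fas, Traf2 and Tradd, were named after their values were seen. Values of some list members are not reported here. T cell markers summed to at most 0.559 TPM, mast cell markers to 0.763 to 2.18 and stromal markers to 0.484 to 1.43, with erythroid markers listed at 0.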

Additional observations from a re-analysis of the deposited data

Results flagged for a closer look

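Genes are given here because the response to C. albicans differed between genotypes by the test of the difference itself, the limma interaction (response in the knockout minus response in wild type, in log2(TPM + 1)). Among the 10 genes these values were -0.54 for Cflar, -0.67 for Birc3, -0.24 for Mcl1, -1.38 for Bcl2a1a, -0.67 for Bcl2a1b and -1.21 for Bcl2a1d, with -0.83 for the Bcl2a1 sum. Each kept its sign and its call in all alternatives run, 23 for the sum and 22 for each gene, with the highest adjusted p at 0.0281 for Mcl1.

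In the pathway lists the same test passed for Traf1 at -1.37, Fas at -1.28, Tnfaip3 at -0.83, Traf3 at -0.47, Bid at -0.41, Ikbke at -0.41, Traf2 at -0.39, Mapkapk2 at -0.35 and Ikbkg at -0.29, and in the other direction for Tradd at 0.30. The call was lost in 10 of 22 alternatives for Ikbke, 11 for Ikbkg, 11 for Traf2 and 14 for Tradd, while those of the other 6 held in all 22. Without wild type with C. albicans replicate 1, 4 of the 6 caspases also had a positive interaction that passed, against 0 with all libraries (limma, with 4 at an unadjusted p under 0.05 and 0 with limma voom).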

How the results depend on the processing

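Over 2766 values of single genes or of the Bcl2a1 sum under alternatives, 2535 kept sign and call. Another 172 kept the sign and lost the call, 18 kept the sign and gained the call, and 41 changed sign, whatever their call. The cause of these changes was not tested. List genes enter this tally only for comparisons in which they passed, so they could lose a call but not gain one. Leaving out a library of a group outside a comparison leaves the difference itself as it was. The same holds for another filter or no variance trend, so in these cases the sign is kept by construction. Of the 10 genes, the number lower in the wild-type response was 0 with median-ratio factors and with voom, against 1. The number higher in the knockout with PBS was 3 with median-ratio factors and 2 with upper-quartile factors, voom or only the libraries compared, against 1. The number lower there was 1 with median-ratio factors or the length trend removed, against 3, and with C. albicans 1 gene was higher with the length trend removed, against 0. Of all tested genes, 2066 (median-ratio) and 2085 (voom) fell in wild type against 3192. In the knockout 768 (voom) rose against 445, and 234 (no filter), 172 (median-ratio), 188 (length trend removed) and 722 (only the libraries compared) fell against 354. With PBS 1606 (median-ratio), 1293 (upper-quartile) and 1516 (voom) were higher in the knockout against 693, and 1595, 1853, 996 (length trend removed) and 1753 lower against 2948. With C. albicans 2172, 2468 and 2201 were higher against 1402, and 1105 interactions were negative with voom against 714.

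Signs changed as follows. Bcl2l11 was at 0.075 (median-ratio), 0.0099 (upper-quartile), 0.031 (length trend removed) and 0.078 (voom) for the wild-type response, at 0.12 with the length trend removed for both knockout effects, and at -0.0305 with median-ratio factors and -0.0301 with voom for the interaction. For the knockout with PBS, Birc3 was at 6.0e-05 (median-ratio) and 0.0012 (voom), Bcl2a1a at 0.071 (median-ratio), 0.0496 (upper-quartile) and 0.14 (voom), Mcl1 at 0.0886 (median-ratio), 0.0639 (upper-quartile), 0.0853 (length trend removed) and 0.0896 (voom), and Cyld at 0.068 with the length trend removed. Ripk1 with C. albicans was at 0.0039 (median-ratio), 0.023 (upper-quartile), 0.073 (length trend removed) and 0.0049 (voom).

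Leaving out 1 library at a time gave 7 to 8 of the 10 genes higher and 1 lower in wild type, 5 to 6 higher in the knockout, 1 to 2 higher and 3 lower in the knockout with PBS, 7 to 8 lower with C. albicans, and 0 to 1 positive and 6 negative interactions. Over all genes it gave 1545 to 1885 higher and 2507 to 3536 lower in wild type, 315 to 663 and 98 to 824 in the knockout, 511 to 865 and 2236 to 3360 for the knockout with PBS, 1034 to 1749 and 2632 to 3164 with C. albicans, and 547 to 1472 and 484 to 1059 for the interaction. Ranges that crossed 0 were -0.0571 to 0.0363 for Bcl2l11 in wild type, -0.0342 to 0.0277 in the knockout and -0.0335 to 0.0599 for its interaction, and, for the knockout with PBS, -0.0490 to 0.0765 for Birc2, -0.18 to 0.14 for Bcl2a1a and -0.0251 to 0.0047 for Mcl1.

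The labels do not say whether same-numbered libraries were paired. Correlations of deviations between same-numbered libraries were -0.0874 to 0.0871 over 18 pairs, and 5 of 12 libraries correlated best with their own number. Low correlations among so few libraries cannot decide whether a mouse or culture was shared. The replicate block changed 4 of 121 calls: Bcl2a1a passed in the knockout response (adjusted p = 0.0446), making 6 genes higher, while Bax (0.0630) and Ikbke (0.0567) in that response and the Ikbkg interaction (0.0557) did not. The depth limits Bcl2a1a most, with 29 reads in its lowest library.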

Other observations

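Ranked by log2 difference among the 11283 tested genes, Bcl2a1a, Cflar, Birc3 and Bcl2a1d were 57, 75, 86 and 91 from the top in the response of wild type. In the knockout response Cflar was 58 and Birc3 89 from the top, and Bcl2a1d was 267. Among differences between genotypes with C. albicans, Bcl2a1a was 34, Cflar 90, Bcl2a1d 156 and Birc3 305 from the bottom.

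Levels of the 10 genes in wild type with PBS spanned from 6.46 ± 0.811 TPM (SD, n = 3) for Bcl2a1a to 566 ± 11.7 TPM for Mcl1. Next below Mcl1 stood Bcl2a1b at 149 ± 3.60 TPM and Ripk1 at 73.5 ± 0.819 TPM. Birc3 at 39.6 ± 2.13, Cflar at 37.8 ± 1.29 and Bcl2l11 at 36.8 ± 1.57 TPM overlapped, and Xiap at 33.8 ± 3.40 TPM overlapped Bcl2l11 and Bcl2a1d at 32.7 ± 0.860 TPM.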
